A study of Rattus norvegicus with 8 samples.

Results

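Nitric oxide synthesis and cGMP signalling were followed through 10 genes, chosen by symbol among the 19239 genes measured on each array: Nos3, Gch1, Ddah1, Ddah2, Gucy1a1 (listed as Gucy1a3), Gucy1b1 (listed as Gucy1b3), Gucy1a2, Prkg1, Irag1 (listed as Mrvi1) and Pde5a. All 10 were measured. Messenger RNA came from the saphenous artery, a muscular artery of the hind limb, of male Wistar rats. The 4 adult samples held the 2 arteries of 1 rat of 2 to 3 months each, and the 4 young samples held 4 arteries pooled from 2 rats of 10 to 12 days each, so a young sample averages over a pair of animals and an adult sample does not. Whole arteries were used, so every value covers all cell types of the wall.

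Nitric oxide is made from arginine by nitric oxide synthases, in the artery wall mainly by the endothelial enzyme Nos3, which needs the cofactor tetrahydrobiopterin and is inhibited by methylated arginines. The gas diffuses into smooth muscle, binds the haem of soluble guanylyl cyclase and raises cGMP. cGMP activates the kinase Prkg1, whose substrates lower cytosolic calcium and the calcium sensitivity of the contractile filaments, and phosphodiesterases end the signal. The comparison of the ages asks which steps of this relaxing pathway differ in level between a growing and a mature muscular artery.

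Nos3, Ddah1 and Ddah2 fell, Gucy1a2, Pde5a and Irag1 rose, and Gucy1a1, Gucy1b1, Prkg1 and Gch1 did not pass the threshold (limma over all genes, two-sided, Benjamini-Hochberg adjusted p below 0.01, n = 4 arrays per age). Thus 6 of the 10 genes (60%) were called, against 32.7% of all genes measured, and 3 of the 10 were higher and 3 lower in adult arteries, against 16.7% and 16% of all genes. In 8 of the 10 the adult and young values lay apart, 4 with all adult values above and 4 with all below, against 46% of all genes in either direction, 24.4% above and 21.5% below. The median difference of the 10 genes was -0.03, and that of all genes 0.002. The 10 genes were chosen with earlier results of these data known, so these counts describe them and are not a test. All genes include many below the lower quartile of each array (7.0), where differences are compressed, and of the 10 only Gch1 lies there. The shares of all genes are thus not those of genes at like levels. All values are log2 expression, differences are adult minus young ± the standard error of the fit, and a fold is adult over young.

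**Figure D1:**
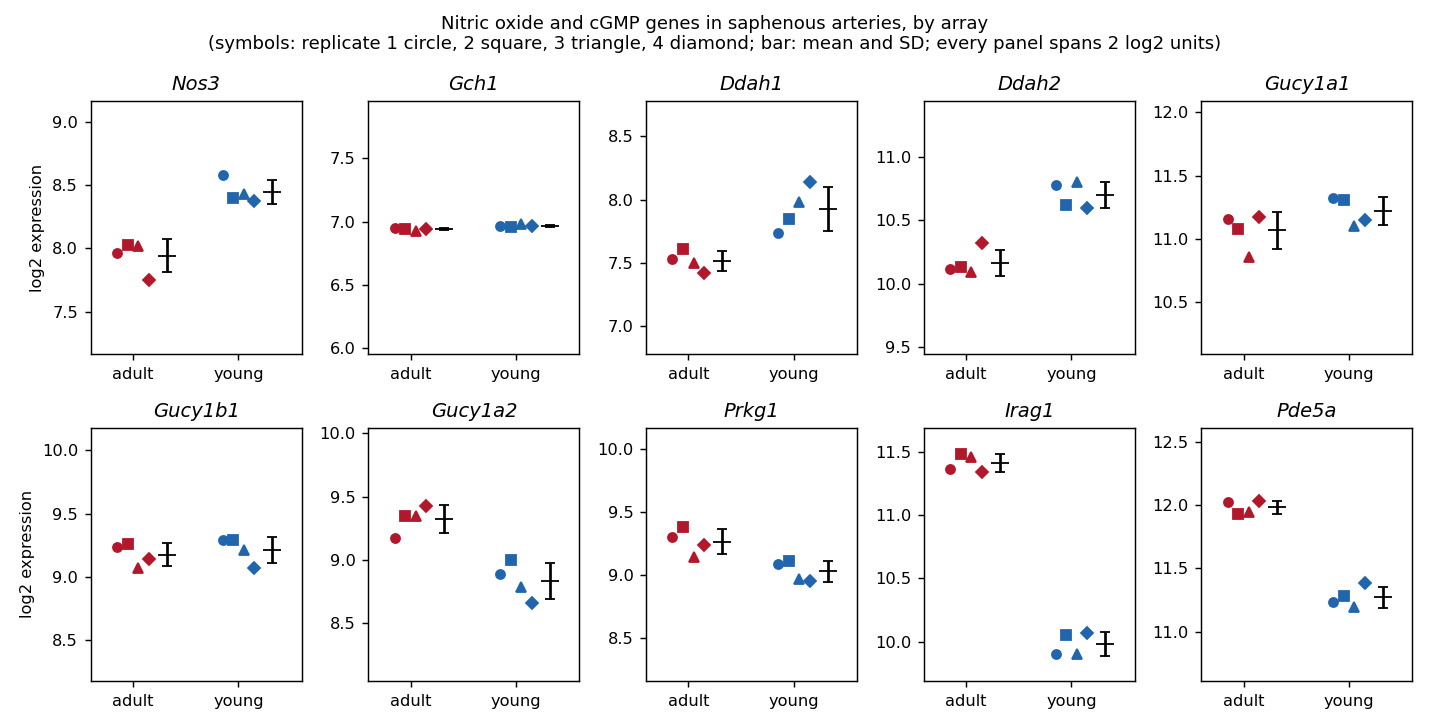
Log2 expression of the 10 genes (vertical axis, each panel spanning the same range) in the 4 adult arrays (left, red) and the 4 young arrays (right, blue), with the mean and SD as black bars. Irag1 lies at 11.34 to 11.48 in adult and at 9.90 to 10.07 in young arrays, whereas the values of Gucy1a1 and Gucy1b1 overlap between the ages.

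The arrays of one age resembled each other, with a mean correlation over all genes of 0.9923 to 0.9957 within an age, and of 0.9361 to 0.9475 between ages. The labelled tissue was borne out by smooth muscle markers near the top of the scale, such as Myh11 at 13.40 ± 0.05 in adult and 13.01 ± 0.02 in young arteries (SD, n = 4 each). Marker levels moved with age. The mean of 9 smooth muscle markers was 12.26 to 12.41 in adult and 11.88 to 11.92 in young arrays. Of the 9, 6 were called higher in adult arteries and none lower, against 16.7% and 16% of all genes. The mean of 12 endothelial markers was 8.11 to 8.41 in adult and 8.87 to 9.27 in young arrays. Of the 12, 7 were called lower and none higher, against 16% and 16.7% of all genes. Of 7 fibroblast markers 5 were lower and 1 higher, against 16% and 16.7% of all genes (means of 10.64 to 10.84 in adult and 11.21 to 11.29 in young arrays). Of 7 macrophage markers 5 were higher, against 16.7% of all genes (7.72 to 7.89 in adult and 7.41 to 7.54 in young arrays). Called lower were also 3 of 7 mast cell and 1 of 3 red blood cell markers, against 16% of all genes. Of 8 skeletal muscle markers 1 was called lower (12.5%), below that share. The mast cell means were 6.99 to 7.03 in adult and 7.24 to 7.39 in young arrays. Red blood cell means were 9.02 to 9.36 in adult and 9.56 to 10.13 in young arrays. Those of skeletal muscle were 7.79 to 7.88 in adult and 7.84 to 8.32 in young arrays. In either direction, 0 of 7 adipocyte and 0 of 6 nerve and Schwann cell markers were called, against 32.7% of all genes. Young replicate 4 had the lowest endothelial marker mean of its group, 8.87 against 9.23 to 9.27 in the other 3.

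Nos3, the endothelial nitric oxide synthase, measured 7.96, 8.03, 8.02 and 7.75 in the 4 adult arrays, against 8.58, 8.40, 8.43 and 8.37 in the 4 young arrays. Every adult value lay below every young value. The level averaged 7.94 ± 0.13 in adult and 8.44 ± 0.09 in young arteries (SD), and the difference of -0.50 ± 0.074 (95% interval -0.68 to -0.33) came to 0.71-fold, with an adjusted p of 0.00124. Without young replicate 4 the difference was -0.53 (adjusted p = 0.00282). In whole arteries, fewer endothelial cells and less Nos3 RNA per endothelial cell cannot be told apart.

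Endothelial markers fell beside Nos3, and their part in its difference was set out by array. Of the 12 endothelial markers measured, 7 had a more negative difference than Nos3 and 5 a less negative one. Cdh5, the endothelial cadherin, had the most negative difference of the list, with values of 8.23, 8.25, 8.51 and 7.98 in adult arrays and 10.77, 10.76, 10.67 and 10.16 in young arrays (-2.35 ± 0.164, adjusted p = 3.58e-05). Icam2 stood at the other end of the list with -0.06 ± 0.022 (adjusted p = 0.0724). Pecam1, an adhesion molecule of endothelial and some blood cells, differed by -0.30 ± 0.088 without passing the threshold (adjusted p = 0.026). Vwf, the von Willebrand factor, differed by -1.16 ± 0.334 (adjusted p = 0.0253), and its young replicate 4 value of 9.64 lay among the adult values of 8.86 to 9.65.

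**Figure D2:**
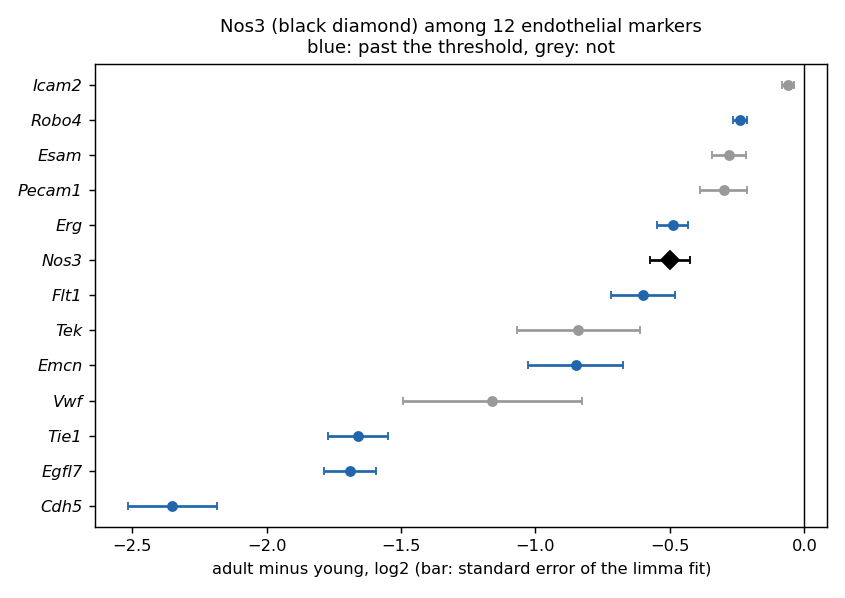
Adult minus young differences (horizontal axis, log2) of Nos3 (black diamond) and 12 endothelial markers (circles, blue past the threshold, grey not), with standard errors of the fit. Nos3 at -0.50 sits inside the span of the markers, which runs from -2.35 for Cdh5 to -0.06 for Icam2.

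Set against the mean of the endothelial markers in the same array, Nos3 was higher in adult arteries. Nos3 minus the marker mean was -0.36, -0.25, -0.38 and -0.36 in the adult arrays, against -0.70, -0.85, -0.80 and -0.51 in the young arrays. The adult values all lay above the young ones, by 0.37 on average (exact permutation test over the 70 splits of the 8 arrays, two-sided, p = 0.0286, the smallest this design allows, adjusted p = 0.0457 over 8 such values). Nos3 thus fell by less than the average endothelial marker. Nos3 and the marker list were chosen with earlier results of these data known, so this p is read as a description. Against the median of the markers the difference was 0.42, in the same direction, and was not called (same test, adjusted p = 0.0571). The adjustment runs over all 8 values together, so this adjusted p also depends on the other values. Without young replicate 4 the difference against the marker mean was 0.44.

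The 300 bases around the start of Nos3 are shown because the Nos3 difference runs opposite to those of Irag1 and Pde5a, whose windows follow with their values. The window runs from 250 bases before to 50 bases after the start (RefSeq, build GRCr8, minus strand, chr4:11706532-11706831), and capitals mark the GC box core GGGCGG, which Sp1 and its relatives read, together with the shorter CACCC element known from Krüppel-like factors, both on either strand.
Nos3: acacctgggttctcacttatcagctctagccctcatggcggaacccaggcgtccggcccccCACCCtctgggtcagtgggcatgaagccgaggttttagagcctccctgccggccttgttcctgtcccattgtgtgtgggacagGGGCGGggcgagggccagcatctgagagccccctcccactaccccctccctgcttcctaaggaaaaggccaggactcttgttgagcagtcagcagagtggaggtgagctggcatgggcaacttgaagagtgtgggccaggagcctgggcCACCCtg
The Nos3 window held 1 GC box core and 2 CACCC elements. Of all 33469 promoter windows of this length, 33.1% held a GC box core and 54.9% a CACCC element on either strand, so both are common. Of the 10 genes, 9 had a window in the table used, and 6 of the 9 held a GC box core. Ddah2 was not matched.

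Gch1, the GTP cyclohydrolase that starts the synthesis of tetrahydrobiopterin, measured 6.95, 6.94, 6.93 and 6.94 in adult arrays, against 6.97, 6.96, 6.98 and 6.97 in young arrays. The adult values all lay below the young ones, but the difference was only -0.03 ± 0.008 and did not pass the threshold (adjusted p = 0.018). These values are below the lower quartile of 7.0 of each array and close to the array minimum of 6.8, a range in which differences are compressed, and with the lowest intensity of the arrays subtracted before the logarithm the difference was -0.12.

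Ddah1 and Ddah2, the dimethylarginine dimethylaminohydrolases that break down the methylated arginines which inhibit the synthase, were both lower in adult arteries. Ddah2 measured 10.12, 10.13, 10.09 and 10.32 in adult arrays, against 10.78, 10.62, 10.80 and 10.60 in young arrays. The groups lay apart, with means of 10.16 ± 0.10 in adult and 10.70 ± 0.10 in young arteries (SD) and a difference of -0.54 ± 0.068 (0.69-fold, adjusted p = 0.000548). Ddah1 measured 7.53, 7.61, 7.50 and 7.42 in adult arrays, against 7.74, 7.85, 7.98 and 8.14 in young arrays. Its groups lay apart too, by a narrower gap, and the difference was -0.41 ± 0.086 (95% interval -0.61 to -0.21, 0.75-fold, adjusted p = 0.00617).

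When single arrays were left out, Ddah1 was the 1 gene of the 6 to lose its call. It did not hold without adult replicate 1 (-0.42, adjusted p = 0.016), 2 (-0.44, 0.0106), 3 (-0.41, 0.0186) or 4 (-0.38, 0.0194), nor without young replicate 2 (-0.44, 0.0122) and young replicate 3 (-0.40, 0.0202), each left out alone. With the lowest intensity of the arrays subtracted before the logarithm, the size of the Ddah1 difference grew to -0.75 and that of Nos3 to -0.75, since both lie low on the scale. The difference between the paralogs, Ddah1 minus Ddah2, did not change detectably with age. It was -2.59, -2.52, -2.58 and -2.89 in adult arrays, against -3.03, -2.77, -2.83 and -2.46 in young arrays, a mean change of 0.13 with overlapping groups (exact permutation test, two-sided, p = 0.4, adjusted p = 0.4), and its sign turned to -0.17 when the lowest intensity was subtracted.

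The soluble guanylyl cyclase, the receptor of nitric oxide, is a dimer of 1 alpha and 1 beta subunit. Gucy1a1, the alpha 1 subunit, measured 11.16, 11.08, 10.86 and 11.17 in adult arrays, against 11.32, 11.31, 11.10 and 11.15 in young arrays. The groups overlapped, and the difference of -0.15 ± 0.084 (95% interval -0.35 to 0.05, adjusted p = 0.19) did not pass the threshold. Gucy1b1, the beta 1 subunit, measured 9.24, 9.26, 9.07 and 9.14 in adult arrays, against 9.29, 9.29, 9.21 and 9.07 in young arrays. It overlapped as well, with a difference of -0.04 ± 0.063 (95% interval -0.19 to 0.11, adjusted p = 0.646), and that small difference changed sign when arrays were centred on ribosomal protein genes (0.01). The log2 difference between these partners, Gucy1a1 minus Gucy1b1, averaged 1.89 ± 0.11 in adult and 2.0 ± 0.08 in young arteries (SD). Only its change with age is read, not its level. The change of -0.11 was not called by the exact permutation test (two-sided, n = 4 each, p = 0.2, adjusted p = 0.229).

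Gucy1a2, the alpha 2 subunit that can take the place of alpha 1 in the dimer, was higher in adult arteries. It measured 9.17, 9.35, 9.35 and 9.43 in adult arrays, against 8.89, 9.0, 8.79 and 8.66 in young arrays. All adult values lay above all young ones, with means of 9.32 ± 0.11 in adult and 8.84 ± 0.14 in young arteries (SD) and a difference of 0.49 ± 0.083 (95% interval 0.29 to 0.68, 1.40-fold, adjusted p = 0.00247). The call was kept without each array in turn, with differences of 0.43 to 0.54.

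Prkg1, the cGMP-dependent kinase of smooth muscle, measured 9.30, 9.38, 9.14 and 9.24 in adult arrays, against 9.09, 9.11, 8.97 and 8.95 in young arrays. The adult values all lay above the young ones by a narrow gap, and the difference of 0.23 ± 0.060 (95% interval 0.09 to 0.37, 1.17-fold) missed the threshold with an adjusted p of 0.0164. Without adult replicate 3, the lowest adult array for this gene, it was 0.27 and passed (adjusted p = 0.00763).

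Irag1, which binds the kinase and the inositol trisphosphate receptor and in its phosphorylated form holds back calcium release, had the largest difference of the 10 genes. It measured 11.36, 11.48, 11.46 and 11.34 in adult arrays, against 9.90, 10.05, 9.90 and 10.07 in young arrays. The gap between the groups was far wider than the spread within them, with means of 11.41 ± 0.07 in adult and 9.98 ± 0.09 in young arteries (SD) and a difference of 1.43 ± 0.054 (95% interval 1.3 to 1.56, 2.69-fold, adjusted p = 3.21e-06). Of all genes measured, 99.1% had a smaller difference in size.

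Pde5a, the phosphodiesterase that splits cGMP in smooth muscle and is the target of sildenafil, rose as well. It measured 12.02, 11.93, 11.94 and 12.03 in adult arrays, against 11.23, 11.28, 11.19 and 11.38 in young arrays. Again no value of one age reached the other, with means of 11.98 ± 0.05 in adult and 11.27 ± 0.08 in young arteries (SD) and a difference of 0.71 ± 0.045 (95% interval 0.61 to 0.82, 1.64-fold, adjusted p = 2.23e-05). The calls of Irag1 and Pde5a were kept without each array in turn, with differences of 1.40 to 1.46 and of 0.68 to 0.75.

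The promoter windows of these 2 genes are printed since they are the members with the largest rise with age, from RefSeq in build GRCr8. Irag1 has 2 annotated starts, whose windows lie 33448 bases apart on the minus strand (chr1:174528802-174529101 and chr1:174495054-174495353), and Pde5a has 1 on the plus strand (chr2:213543776-213544075). Capitals mark the GC box core, the CACCC element and the MCAT core CATTCC, which is read by TEAD factors, each on either strand.
Irag1, first start: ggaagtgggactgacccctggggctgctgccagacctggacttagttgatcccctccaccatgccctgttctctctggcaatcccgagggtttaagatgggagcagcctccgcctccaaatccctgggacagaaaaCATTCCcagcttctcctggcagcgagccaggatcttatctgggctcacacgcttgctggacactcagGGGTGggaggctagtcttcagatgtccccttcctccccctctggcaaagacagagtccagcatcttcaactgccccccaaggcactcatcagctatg
Irag1, second start: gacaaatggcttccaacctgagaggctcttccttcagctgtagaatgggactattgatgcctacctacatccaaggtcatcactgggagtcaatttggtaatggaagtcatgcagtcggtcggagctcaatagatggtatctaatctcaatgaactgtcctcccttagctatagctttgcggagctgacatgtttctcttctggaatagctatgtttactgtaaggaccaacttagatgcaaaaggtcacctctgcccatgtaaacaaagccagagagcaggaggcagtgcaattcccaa
Pde5a: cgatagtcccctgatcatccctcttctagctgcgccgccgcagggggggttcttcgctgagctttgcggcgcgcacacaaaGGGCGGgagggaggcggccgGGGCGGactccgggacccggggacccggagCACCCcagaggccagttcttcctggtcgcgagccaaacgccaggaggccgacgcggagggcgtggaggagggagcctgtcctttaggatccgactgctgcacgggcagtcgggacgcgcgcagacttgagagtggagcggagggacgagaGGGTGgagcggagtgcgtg
The first Irag1 window held 1 MCAT core and 1 CACCC element, which lies on the opposite strand and reads as GGGTG, and the second held none of these motifs. The Pde5a window held 2 GC box cores and 2 CACCC elements, 1 on each strand, and has 69.7% G and C, against 58.3% and 46.0% in the Irag1 windows and a median of 51.7% over all windows. The MCAT core was found in 14.2% of all windows and in 1 of the 9 genes with a window. The CArG box read by serum response factor was in none of the 9 and in 1.64% of all windows. The array has 1 value per gene and does not tell the 2 Irag1 starts apart.

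Smooth muscle markers rose with age by 0.40 at the median, so the smooth muscle genes were also set against the mean of the 9 markers in the same array. Here only the change with age is read. Irag1 minus the marker mean was -0.91, -0.82, -0.94 and -1.02 in adult arrays, against -2.0, -1.83, -1.99 and -1.85 in young arrays, a change of 1.00. None of the 9 markers had a larger difference than Irag1, the highest being Lmod1, an actin-nucleating protein of smooth muscle, with 1.18 ± 0.039. Pde5a minus the marker mean was -0.24, -0.37, -0.46 and -0.34 in adult arrays, against -0.67, -0.60, -0.70 and -0.54 in young arrays, a change of 0.28. Of the 9 markers, 2 had a larger difference than Pde5a. Both genes rose by more than the mean of the markers.

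Gucy1a1 and Gucy1b1 were lower in adult arteries on this scale, on which Gucy1a2 was not tested (2 of the 9 markers had a larger difference than Gucy1a2). Gucy1a1 minus the marker mean was -1.1, -1.22, -1.54 and -1.19 in adult arrays, against -0.58, -0.57, -0.79 and -0.77 in young arrays, a change of -0.58. Gucy1b1 minus the marker mean was -3.03, -3.03, -3.33 and -3.22 in adult arrays, against -2.60, -2.59, -2.68 and -2.85 in young arrays, a change of -0.47. For both subunits every adult value lay below every young one. Their own differences, -0.15 and -0.04, did not pass the threshold, while the marker mean rose by 0.43. The 2 changes on this scale thus mostly carry the rise of the markers. For Irag1, Pde5a, Gucy1a1 and Gucy1b1 the exact permutation test gave a two-sided p of 0.0286 each, the smallest possible with 4 arrays per age. The adjusted p was 0.0457 over the 8 values tested. Genes and markers were chosen with earlier results of these data known, so these p-values are read as a description. Prkg1 minus the marker mean changed by -0.20 with overlapping groups (exact permutation test, p = 0.143, adjusted p = 0.19). With the median of the markers in place of their mean, the changes kept their direction. They were 1.03 for Irag1, 0.31 for Pde5a, -0.55 for Gucy1a1 and -0.44 for Gucy1b1. None kept its call in the same test (adjusted p = 0.0571 for Irag1, Gucy1a1 and Gucy1b1, and 0.183 for Pde5a). The adjustment joins all 8 values, so the adjusted p of each gene also depends on the others. Whether the share of smooth muscle in the samples or its RNA per cell moved the markers cannot be told apart.

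**Figure D3:**
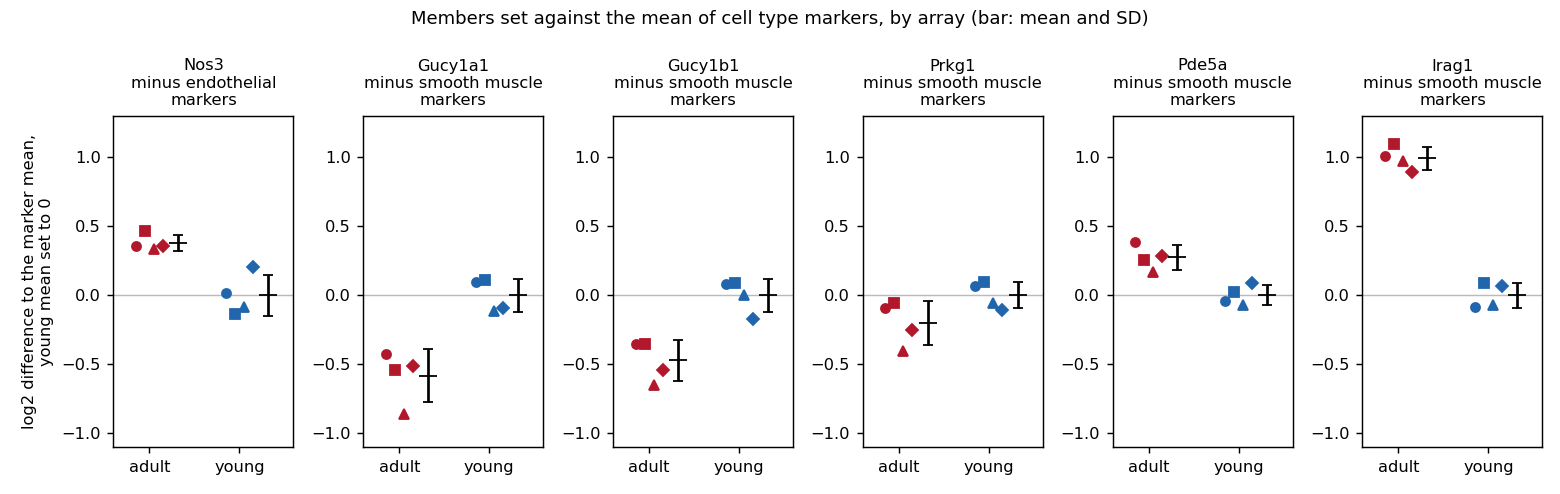
Log2 level of 6 genes minus the mean of the endothelial or smooth muscle markers of the same array, with the young mean set to 0 (vertical axis), in adult (left, red) and young arrays (right, blue), bars giving the mean and SD. Nos3, Pde5a and Irag1 lie above their young values in all adult arrays and Gucy1a1 and Gucy1b1 below, whereas Prkg1 overlaps.

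The rest of the pathway was read from 7 lists with 59 of 65 genes measured. Of these 59 genes, 12 were higher and 14 lower in adult arteries and 33 were not called. Thus 44.1% were called, against 32.7% of all genes. The lists were chosen with earlier results of these data known, so the share called in each list is a description and not a test. The median difference was 0.01 and 31 of the 59 lay within 0.1 of 0. In 23 of them the mean lay below the array median of 7.29 at both ages, where differences are compressed.

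Most of the listed genes downstream of the kinase rose. Of 11 measured genes of the kinase Prkg2 and of substrates and effectors of cGMP kinase, 8 were higher, 1 was lower and 2 were not called (81.8% called, against 32.7% of all genes, 16.7% being higher and 16% lower), with a median difference of 0.66. Phospholamban, Pln, whose phosphorylation frees the calcium pump of the sarcoplasmic reticulum, measured 11.74, 11.97, 11.62 and 11.97 in adult arrays, against 9.30, 9.39, 9.30 and 9.60 in young arrays (2.43 ± 0.103, 5.38-fold, adjusted p = 4.94e-06). Kcnma1, the pore of the large-conductance calcium-activated potassium channel that the kinase opens, measured 10.94, 10.96, 10.92 and 11.02 in adult arrays, against 9.56, 9.66, 9.44 and 9.67 in young arrays (1.38 ± 0.053, 2.60-fold, adjusted p = 3.29e-06). In both genes the groups were more than 1 log2 unit apart. Itpr1, the inositol trisphosphate receptor that Irag1 binds, measured 11.14, 11.05, 11.26 and 11.43 in adult arrays, against 10.22, 10.24, 10.12 and 10.02 in young arrays (1.07 ± 0.088, 2.10-fold, adjusted p = 7.16e-05).

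Other effectors rose too. Rgs2, which speeds the shut-off of Gq signals and is activated by the kinase, differed by 1.56 ± 0.117 (adjusted p = 4.73e-05), and Hspb6, a small heat shock protein phosphorylated during relaxation, by 1.37 ± 0.166 (adjusted p = 0.000464). Ppp1r12a, the myosin phosphatase subunit through which the kinase lowers calcium sensitivity, measured 11.27, 11.19, 11.32 and 11.23 in adult arrays, against 10.62, 10.56, 10.62 and 10.57 in young arrays (0.66 ± 0.030, 1.58-fold, adjusted p = 6.17e-06). Kcnmb1, the beta subunit of the same potassium channel, rose by 0.57 ± 0.099 and the LIM protein Crip2 by 0.41 ± 0.049. The 1 gene of the list that fell was Trpc6, a cation channel that the kinase inhibits (-0.37 ± 0.032, adjusted p = 8.96e-05). Vasp differed by 0.07 ± 0.060 and Prkg2, the kinase isoform known from gut and brain, by 0.00 ± 0.006, near the array minimum at 6.86 in both adult and young arteries. Like the rise of Irag1, these rises stood beside the higher smooth muscle markers. Unlike Irag1, these effectors were not set against the markers, so the part of the markers in their rises was not tested.

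**Figure D4:**
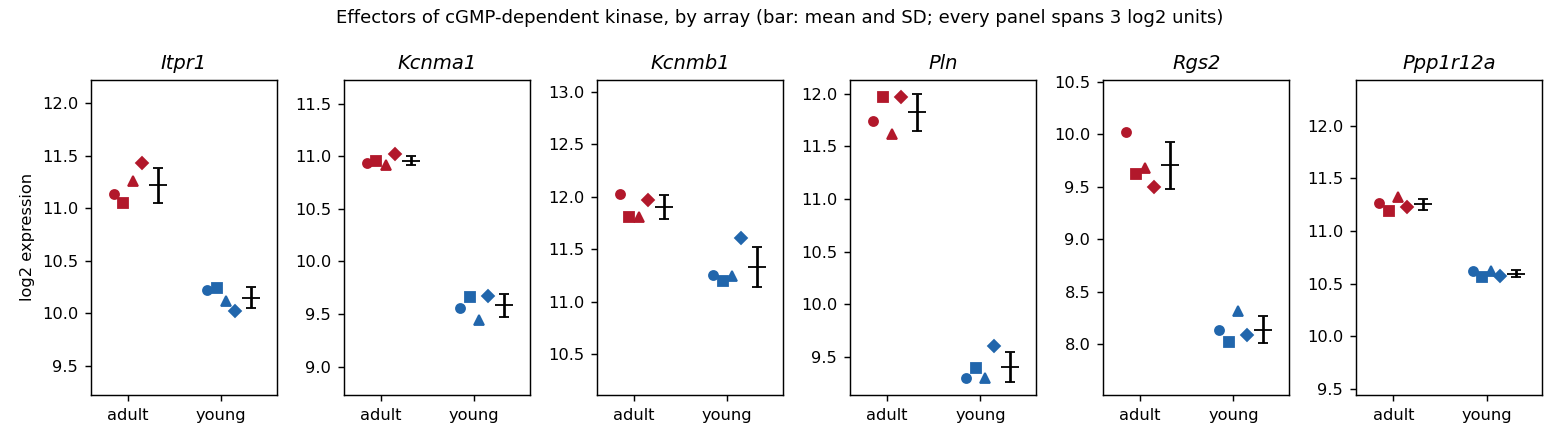
Log2 expression of 6 effectors of cGMP-dependent kinase (vertical axis, each panel spanning the same range) in adult (left, red) and young arrays (right, blue), with the mean and SD as bars. No young value reaches an adult value in any panel, and Pln shows the widest gap, 2.43 between the means.

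Of 10 genes for the other synthases and regulators of the enzyme, 2 rose and 3 fell (50% called, against 32.7% of all genes, 16.7% being higher and 16% lower), with a median difference of 0.00. Akt1, the kinase that activates Nos3 by phosphorylation, measured 10.79, 10.74, 10.95 and 10.91 in adult arrays, against 11.36, 11.32, 11.38 and 11.30 in young arrays (-0.49 ± 0.048, 0.71-fold, adjusted p = 0.000165). Hsp90ab1, of the chaperone family that holds Nos3 active, differed by -0.31 ± 0.056 (adjusted p = 0.00327), which missed the threshold with an adjusted p of 0.0106 when adult replicate 3 (-0.28) or young replicate 2 (-0.31) was left out and of 0.0109 without young replicate 3 (-0.31). Nos1ap, an adaptor of the neuronal synthase, fell by 0.53 ± 0.043. Nosip, a protein that binds Nos3, rose by 0.21 ± 0.019 and Dynll1, a dynein light chain that binds the neuronal synthase, by 0.22 ± 0.039. The caveolar scaffold Cav1, which binds and restrains Nos3, averaged 12.88 ± 0.06 in adult and 12.87 ± 0.07 in young arteries (SD, adjusted p = 0.895). The neuronal synthase Nos1 (7.07 ± 0.02 in adult, 7.11 ± 0.06 in young arteries) and the inducible synthase Nos2 (7.08 ± 0.04 in adult, 7.08 ± 0.01 in young arteries) lay below the array median and were not called, so Nos3 was the 1 synthase that passed the threshold.

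Arginine transporters were lower in adult arteries. The cationic amino acid transporter Slc7a2 measured 9.98, 9.96, 9.74 and 9.85 in adult arrays, against 10.39, 10.46, 10.38 and 10.65 in young arrays (-0.59 ± 0.077, 0.67-fold, adjusted p = 0.00068), and Slc7a1 fell by 0.42 ± 0.055 (adjusted p = 0.000619). The arginase Arg1, which competes for arginine, rose by 0.08 ± 0.010 at values of 7.0 to 7.1, below the array median, and Arg2 did not pass (0.01 ± 0.013). Of the 7 genes for arginine supply and methylarginine turnover outside the members, 1 was thus higher and 2 lower (42.9% called, against 32.7% of all genes), with a median difference of 0.01. Of 5 genes for tetrahydrobiopterin synthesis and recycling, Pcbd1 alone was called (20%, against 32.7% of all genes), with -0.06 ± 0.011 at values near the array minimum (median of the list 0.01).

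Natriuretic peptide receptors were lower in adult arteries. Npr2, the guanylyl cyclase that binds C-type natriuretic peptide, measured 7.87, 7.65, 7.71 and 7.67 in adult arrays, against 8.41, 8.56, 8.51 and 8.59 in young arrays (-0.79 ± 0.060, 0.58-fold, adjusted p = 4.82e-05). Npr1, the receptor of atrial natriuretic peptide, measured 7.24, 7.23, 7.26 and 7.17 in adult arrays, against 7.48, 7.55, 7.52 and 7.40 in young arrays (-0.26 ± 0.034, adjusted p = 0.000687). The clearance receptor Npr3, with -0.08 ± 0.014 near the lower end of the scale (adjusted p = 0.00415), lost its call without adult replicate 1, 3 or 4 or young replicate 1, 2 or 3 (-0.07 to -0.08, adjusted p = 0.0123 to 0.0145). Of the 9 genes of this list 4 were lower, these 3 and the cyclase subunit Gucy1b2 (-0.06 ± 0.008), and none was higher, against 16% and 16.7% of all genes, with a median of 0.00. Npr1 (-0.21), Npr3 (-0.03) and Gucy1b2 (-0.01) were not called when arrays were centred on ribosomal protein genes. That setting gave every gene the same standard error of 0.091, so a lost call there does not show that the difference was gone.

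Among 12 genes listed with the other phosphodiesterases and export pumps, 1 was higher and 3 were lower. The share called was 33.3%, near the 32.7% of all genes, and the median difference was 0.01. Pde3a, a phosphodiesterase that splits cAMP and is inhibited by cGMP, measured 11.12, 11.01, 10.93 and 11.10 in adult arrays, against 10.54, 10.52, 10.48 and 10.64 in young arrays (0.50 ± 0.051, 1.41-fold, adjusted p = 0.000209), so it rose beside Pde5a. Abcc5, a pump that exports cyclic nucleotides, measured 8.13, 8.03, 8.11 and 8.10 in adult arrays, against 8.82, 8.94, 8.75 and 8.78 in young arrays (-0.73 ± 0.043, 0.60-fold, adjusted p = 1.65e-05). Pde1c fell by 0.21 ± 0.030 and Pde9a by 0.09 ± 0.013, both at low values. None of 5 genes for scavenging of nitric oxide and denitrosylation was called (median 0.04).

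**Figure D5:**
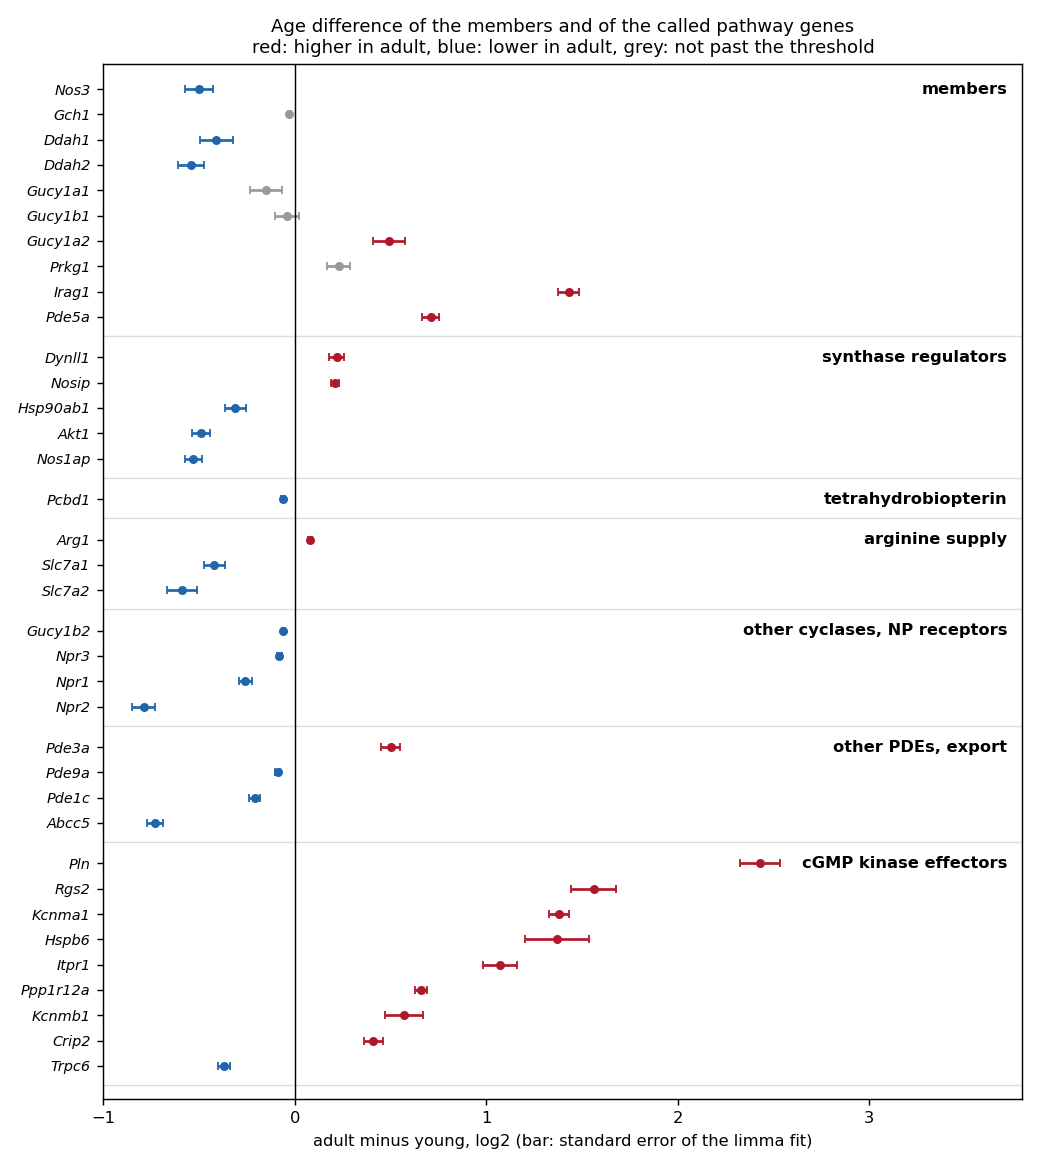
Adult minus young differences (horizontal axis, log2, bars giving the standard error of the fit) of the 10 genes and of the other pathway genes past the threshold, by role. The kinase effectors lie mostly to the right, up to 2.43 for Pln, and the natriuretic peptide receptors to the left, down to -0.79 for Npr2.

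The genes whose profile over the 8 arrays was most like that of 3 members were found by the root mean square difference of log2 values, each gene centred on its own mean. For Nos3 these were Adipor2 (0.027), Pofut1 (0.049) and Tspan13 (0.055), with adult minus young differences of -0.51, -0.50 and -0.48. For Irag1 they were Phyh (0.064), the effector Kcnma1 (0.074) and Prkag2 (0.081), with differences of 1.41, 1.38 and 1.36. For Gucy1a1 they were Mdm4 (0.04), Bpnt2 (0.051) and Rbm26 (0.068), with differences of -0.19, -0.08 and -0.20. The 8 arrays fall into 2 groups, so this measure takes in the age difference as well as the deviations of single arrays.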

How the data were processed

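The authors hybridised RNA of each saphenous artery sample to 1 Affymetrix Rat Gene array. The deposited values are log2 expression from RMA (named in the submitters' processing notes, version not given) with quantile normalization and 1 probe set per Entrez gene. Sorted by size, the 8 columns are identical (largest difference 0.0), so an overall shift between ages cannot be seen. Values ran from 6.8 to 13.82 (quartiles 7.0 and 8.07), the lowest standing for an intensity of 111.2, which compresses differences of weak genes. The number of arrays limits the precision.

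Of 19239 rows, 16592 had 1 symbol and 2647 are unnamed here, and symbols were updated through the Entrez identifier (RefSeq, GRCr8). Sample titles gave the groups, which were set against each other with the R package limma (version 3.58.1, R 4.3.3, functions lmFit and eBayes, no covariate, all rows, Benjamini-Hochberg adjustment, threshold 0.01). The methods' one-way ANOVA was an alternative, beside a variance trend, array weights, blocks by replicate number and by sample code (below or above 20), centring on 26 ribosomal protein genes, the lowest intensity subtracted (offset 16), removal of the dimmest 25% of rows, each array left out, an adjusted p of 0.05 and a fold of 1.5. Values relative to markers or partners were tested by exact permutation over arrays. The 10 genes and all lists were chosen with earlier results of these data known. Named were the 10 genes, called genes of the 7 pathway lists with groups apart, 10 genes set by name (such as Nos1, Npr1 and Cav1), defining or extreme markers, and the 3 closest profiles of 3 members. Vasp, and pathway genes whose sign turned with the processing, were named after their values were seen.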

Additional observations from a re-analysis of the deposited data

Results flagged for a closer look

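In groups of 4 arrays, 8 of 172 groups examined held 1 array that stood far from the other 3 (4.65%, where chance gives about 1 in 20). None of the 10 genes was among them. The 2 marker means were the endothelial one, at 8.87 in young replicate 4 and 9.23 to 9.27 in the other young arrays, and the adipocyte one, at 7.41 in young replicate 2 and 7.17 to 7.19 in the others. The pathway genes were Kcnmb1, at 11.61 in 1 young array and 11.20 to 11.26 in the others, Ass1 at 7.26 in 1 adult array and 7.40 to 7.42 in the others, Nos1 at 7.03 in 1 adult array and 7.07 to 7.08 in the others, Pde9a at 7.07 in 1 adult array and 7.09 in the others, Txn1 at 12.89 in 1 adult array and 12.91 in the others, and Nostrin at 6.95 in 1 young array and 6.97 to 6.98 in the others. Ass1, Txn1 and Nostrin are named here for this reason only.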

How the results depend on the processing

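The differences of Irag1 and Pde5a kept their direction and call under every alternative run, and those of Nos3 under every one but the fold of 1.5. With a fold of at least 1.5 beside the adjusted p, all genes called were 1427 (716 higher, 711 lower), no member was called lower, other pathway genes called were 6 higher and 3 lower, and Nos3 (-0.50), Gucy1a2 (0.49), Ddah1 (-0.41) and Ddah2 (-0.54) were not called. Centring on ribosomal protein genes shifted the median of all genes to 0.052 and left 3912 genes called, 1636 of them lower, 8 other pathway genes lower, Prkg1 past the threshold (0.28, adjusted p = 0.00985), and turned Gucy1b1 to 0.01, Gch1 to 0.02, Nos1 to 0.00, Nos2 to 0.05, Qdpr to 0.01, Agxt2 to 0.04, Gucy2g to 0.05, Pde1b to 0.03 and Prkg2 to 0.05, none of these called. With 1 standard error of 0.091 for every gene, it also ended the calls of Nosip (0.26), Dynll1 (0.27), Hsp90ab1 (-0.26), Pcbd1 (-0.01), Arg1 (0.13), Gucy1b2 (-0.01), Npr1 (-0.21), Npr3 (-0.03), Pde1c (-0.16) and Pde9a (-0.04), so a lost call there does not show that the difference was gone. The replicate numbers did not pair the samples (correlations of the deviations -0.082 to 0.040). With the replicate number as a block, 1 member was lower, with Gucy1a2 at 0.49 (adjusted p = 0.0202), Ddah1 at -0.41 (0.036) and Ddah2 at -0.54 (0.0107) not called and Prkg1 called at 0.23 (0.00399), Hsp90ab1, Pcbd1, Npr3 and Pde9a lost, and all genes called were 4408. With the sample code as a block, Prkg1 was called at 0.26 (0.00385), Ddah1 was not at -0.43 (0.011), Gucy1b1 was at 0.00 and Nos2 turned to 0.01. The methods' ANOVA lost Ddah1 (-0.41, adjusted p = 0.0141) and called Gch1 (-0.03, 0.00387), as a variance trend did (-0.03, 0.00422), which lost Dynll1, and a threshold of 0.05 called Prkg1 (0.23) and Gch1 (-0.03). Array weights turned Cav1 to -0.02. Against the median of the markers, Nos3 (0.42), Gucy1a1 (-0.55), Gucy1b1 (-0.44), Pde5a (0.31) and Irag1 (1.03) were not called, and subtracting the lowest intensity turned Ddah1 minus Ddah2 to -0.17. The dim filter left no value for Gch1. The cause of these changes was not tested.

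With 1 array left out, all genes called were 4951 to 5759 (2441 to 2969 higher, 2510 to 2899 lower), members called 3 to 4 higher and 2 to 3 lower, and other pathway genes called 12 to 14 higher and 12 to 15 lower. The ranges were -0.53 to -0.44 for Nos3, -0.47 to -0.34 for Ddah1, -0.59 to -0.51 for Ddah2, 0.43 to 0.54 for Gucy1a2, 0.19 to 0.27 for Prkg1, 0.68 to 0.75 for Pde5a, 1.40 to 1.46 for Irag1, -0.19 to -0.08 for Gucy1a1 and -0.09 to 0.00 for Gucy1b1. Signs turned in Nos2 (-0.02 to 0.01), Cav1 (-0.03 to 0.03), Arg2 (-0.01 to 0.01) and Gucy2e (0.00 to 0.02), each near 0 and not called.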
